A study of Mus musculus with 12 samples.

Results

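Chromatin accessibility at Icos, Cd28, Ctla4 and Pdcd1 was examined in ATAC-seq libraries of thymic invariant natural killer T (iNKT) cells. ATAC-seq counts where the transposase Tn5 inserts into DNA, so that open promoters and enhancers collect more insertions than packed chromatin. The members were all 500-bp regions of the table that overlapped the GENCODE vM21 body of 1 of the 4 genes with 10 kb on either side, and this rule gave 51 of 63309 regions. There were 16 regions at Icos, 16 at Cd28, 8 at Ctla4 and 11 at Pdcd1.

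Libraries came from untreated C57BL/6 mice or from Hivep3-/- mice, which lack the large zinc finger protein HIVEP3, aged 8 to 9 weeks. From each genotype 3 subsets were sorted: iNKT1 (CD122+ ICOS-), iNKT2 (CD122- ICOS+ Izumo1r+ CD138-) and iNKT17 (CD122- ICOS+ Izumo1r- CD138+), with 2 libraries per group and 12 in all. Thymi were pooled, the subsets were joined for the transposition and were then separated again on ICOS and CD138. ICOS was therefore the gate that divided iNKT1 from both other subsets, and differences of the Icos locus across that gate are given as a description with no test. In a bulk library, a change of accessibility in each cell and a change in the share of cells that are open cannot be told apart.

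CD28 and ICOS are co-stimulatory receptors of T cells. CD28 binds CD80 and CD86, ICOS binds ICOS ligand, and both recruit phosphoinositide 3-kinase to add to the signal of the T cell receptor. CTLA-4 is an inhibitory relative that binds CD80 and CD86 more tightly than CD28 does, and PD-1, the product of Pdcd1, binds PD-L1 and PD-L2 and recruits the phosphatase SHP-2. In the thymus, ICOS is known as a surface protein of iNKT2 and iNKT17 cells, and Cd28, Ctla4 and Icos lie side by side in 1 cluster.

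On mm10, the cluster covered 283.5 kb of chromosome 1 from the start of Cd28 to the end of Icos and held 42 regions of the table. Cd28 (ENSMUSG00000026012.2) was annotated at chr1:60716800-60773359, Ctla4 (ENSMUSG00000026011.13) at chr1:60887000-60915832 and Icos (ENSMUSG00000026009.14) at chr1:60977927-61000320, all on the plus strand. Pdcd1 (ENSMUSG00000026285.7) lies far away on the same chromosome at chr1:94038305-94052553, on the minus strand. Of the 51 regions, 6 were promoter regions within 1000 bp of a start site of the gene, 22 were intronic, 4 overlapped an exon, 8 lay upstream and 11 downstream. Regions are named here by their distance in kb from the start of the principal coding transcript, with a plus sign for downstream in the direction of the gene.

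The widest ranges over the libraries lay outside the promoters. For 5 regions, those with the widest range at each locus and 1 more at Cd28, the central 300 bases (mm10, strand of the gene, 5′ to 3′) are printed here because the results turn on them. Capitals mark matches, on either strand, to 1 of 10 motifs. These were the bZIP motif TGACTCA, the Runt motif AACCACA, the T-box motif AGGTGTGA, the NFAT motif TTTTCCA, the TCF motif TCAAAGG, the ETS motif GGAAGT, the GATA motif AGATAA, the Egr motif GCGTGGGNG, the ROR motif TAGGTCA with its variant TGGGTCA, and the NF-kB motif.
Icos +24.2 kb, chr1:61001979-61002278, plus strand, downstream of the gene: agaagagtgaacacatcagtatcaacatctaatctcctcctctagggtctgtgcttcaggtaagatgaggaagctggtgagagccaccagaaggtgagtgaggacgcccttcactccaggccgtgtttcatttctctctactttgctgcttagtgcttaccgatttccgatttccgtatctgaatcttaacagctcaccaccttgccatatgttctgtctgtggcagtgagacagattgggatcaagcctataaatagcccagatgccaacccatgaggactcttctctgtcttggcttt
Pdcd1 +11.9 kb, chr1:94040491-94040790, minus strand, overlapping a coding exon: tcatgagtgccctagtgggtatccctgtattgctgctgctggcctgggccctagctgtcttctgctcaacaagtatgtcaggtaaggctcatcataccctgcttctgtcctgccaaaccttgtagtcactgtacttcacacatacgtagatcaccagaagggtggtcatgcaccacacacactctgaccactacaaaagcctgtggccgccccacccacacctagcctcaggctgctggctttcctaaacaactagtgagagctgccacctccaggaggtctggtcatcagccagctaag
Ctla4 -26.0 kb, chr1:60882845-60883144, plus strand, upstream of the annotated gene: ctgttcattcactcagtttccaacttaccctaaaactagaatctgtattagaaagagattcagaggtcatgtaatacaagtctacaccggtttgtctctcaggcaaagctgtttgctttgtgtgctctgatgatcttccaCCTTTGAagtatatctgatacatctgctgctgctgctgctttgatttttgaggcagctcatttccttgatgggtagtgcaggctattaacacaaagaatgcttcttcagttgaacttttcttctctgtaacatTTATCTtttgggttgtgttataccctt
Cd28 +21.9 kb, chr1:60768093-60768392, plus strand, intronic: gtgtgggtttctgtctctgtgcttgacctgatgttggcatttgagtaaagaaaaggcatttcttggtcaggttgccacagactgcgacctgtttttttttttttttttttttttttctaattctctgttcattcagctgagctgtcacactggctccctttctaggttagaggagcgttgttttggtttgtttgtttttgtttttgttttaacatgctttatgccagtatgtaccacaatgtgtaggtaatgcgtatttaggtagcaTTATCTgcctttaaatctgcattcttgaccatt
Cd28 -32.9 kb, chr1:60713277-60713576, plus strand, upstream of the distal annotated start: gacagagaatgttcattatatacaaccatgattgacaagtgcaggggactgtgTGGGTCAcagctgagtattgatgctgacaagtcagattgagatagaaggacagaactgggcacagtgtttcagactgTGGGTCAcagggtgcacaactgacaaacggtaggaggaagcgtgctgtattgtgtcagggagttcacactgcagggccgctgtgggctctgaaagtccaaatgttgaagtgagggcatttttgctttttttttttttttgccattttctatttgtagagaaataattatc
The Cd28 -32.9 kb sequence held 2 ROR matches, the Cd28 +21.9 kb sequence held 1 GATA match, and the Ctla4 -26.0 kb sequence held 1 TCF and 1 GATA match. The Icos +24.2 kb and Pdcd1 +11.9 kb sequences held no match to these letters. In the same 300-base windows of all 63309 regions, a ROR match was present in 8.2%, a GATA match in 12.9% and a TCF match in 6.2%. Over the 51 members, 13 had a GATA match (25.5%), 11 a Runt match (21.6% against 13.7% of all regions), 9 an ETS match (17.6% against 29.2%) and 6 a bZIP match (11.8% against 8.68%). No member had a T-box or an Egr match, and these letters were present in 2.08% and 1.84% of all regions.

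RefSeq promoter entries on GRCm38.p6 matched 2 of the 4 genes, Ctla4 and Pdcd1. Their 250 bases before the start are shown because the accessible promoter regions sit on them.
Ctla4 promoter, chr1:60908775-60909024, plus strand: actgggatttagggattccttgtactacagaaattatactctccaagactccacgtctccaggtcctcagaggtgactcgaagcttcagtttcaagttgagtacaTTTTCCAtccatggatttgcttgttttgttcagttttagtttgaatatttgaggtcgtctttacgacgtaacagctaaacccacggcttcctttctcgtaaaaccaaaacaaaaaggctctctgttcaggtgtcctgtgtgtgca
Pdcd1 promoter, chr1:94052554-94052803, minus strand: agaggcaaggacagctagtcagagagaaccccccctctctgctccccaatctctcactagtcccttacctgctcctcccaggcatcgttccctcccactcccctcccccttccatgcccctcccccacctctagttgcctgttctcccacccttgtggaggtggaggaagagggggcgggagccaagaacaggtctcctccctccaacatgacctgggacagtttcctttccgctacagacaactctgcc
The Ctla4 sequence held 1 NFAT match, which 6.73% of all 32851 RefSeq promoter windows of 300 bases also hold, and the Pdcd1 sequence held none of the 10 motifs.

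The values are log2 of normalized insertions per kb, and the study treated a region as accessible from a linear mean of 5. All 51 members reached that level in at least 1 group and 33 of them in all 6 groups. The highest member was Pdcd1 +17.0 kb, which lies downstream of the gene and stayed between 7.52 and 7.96 in all 12 libraries. The lowest value, -0.17, was found at Icos +26.3 kb in a Hivep3-/- iNKT1 library. The heat map shows all members in all libraries.

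**Figure D1:**
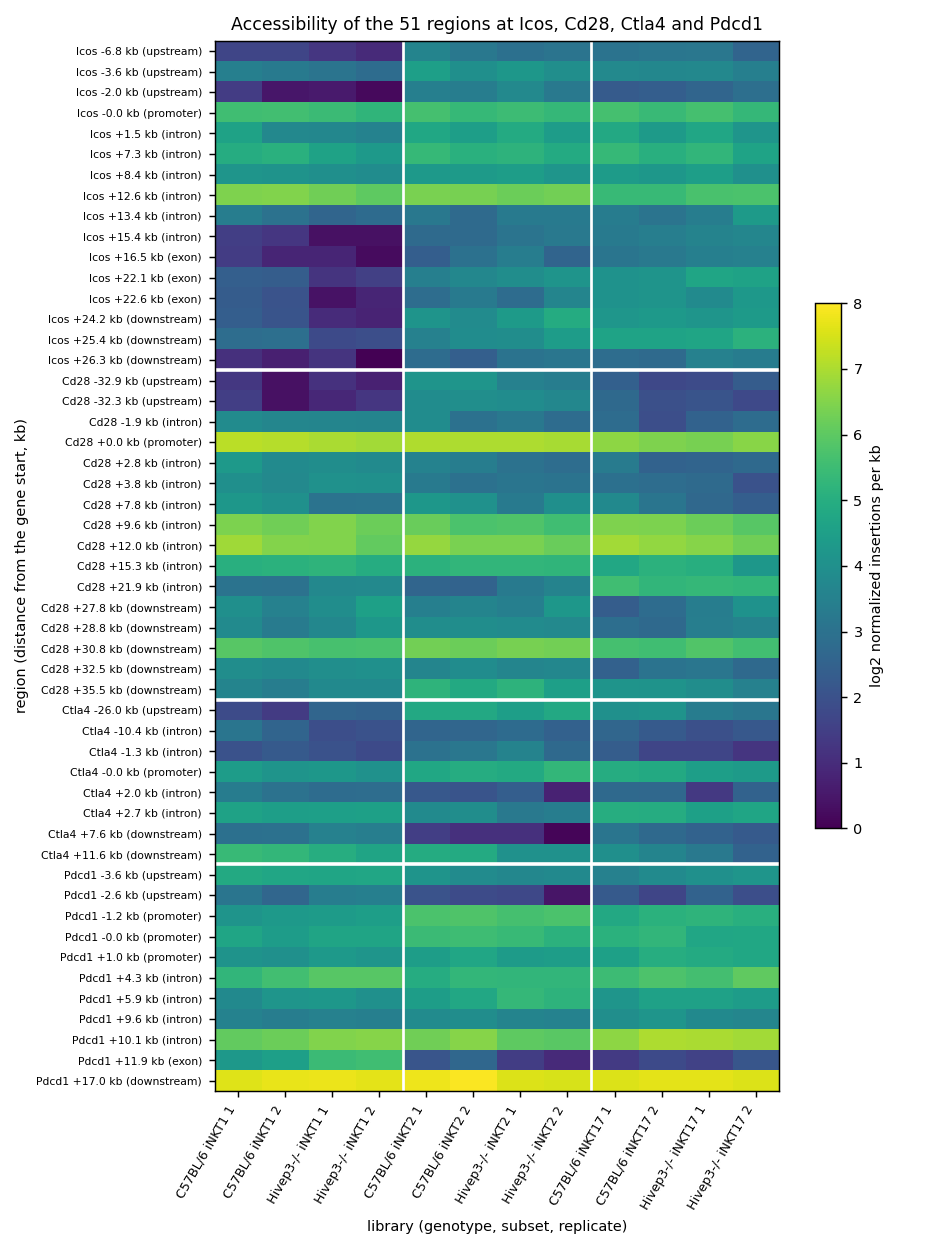
Heat map of the 51 member regions (rows, named by gene, distance from the gene start in kb and annotation) in the 12 libraries (columns, by genotype, subset and replicate), coloured by log2 normalized insertions per kb. Icos regions from +15.4 to +26.3 kb are dark in the 4 iNKT1 libraries, Pdcd1 +11.9 kb is bright only in those 4, and Pdcd1 +17.0 kb is bright in all 12.

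The promoter regions were open in every library. The Icos promoter region lay between 5.25 and 5.65, including the iNKT1 libraries, which were sorted as ICOS negative: 5.55 and 5.58 in C57BL/6 and 5.47 and 5.25 in Hivep3-/-. The iNKT2 libraries had 5.65 and 5.35 in C57BL/6 and 5.50 and 5.33 in Hivep3-/-, and the iNKT17 libraries had 5.64 and 5.43 and then 5.65 and 5.33. The values of the 3 subsets overlapped, and its range of 0.41 was the smallest of the 16 Icos regions.

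The Cd28 promoter region was the most open of the 4 gene starts, at 7.16 and 7.12 for C57BL/6 iNKT1, 6.99 and 6.88 for Hivep3-/- iNKT1, 7.04 and 7.02 for C57BL/6 iNKT2, 7.0 and 6.97 for Hivep3-/- iNKT2, 6.64 and 6.45 for C57BL/6 iNKT17 and 6.35 and 6.56 for Hivep3-/- iNKT17. All 4 iNKT17 libraries were below the other 8. The Ctla4 promoter region had 4.41 and 4.15 for C57BL/6 iNKT1, 4.23 and 4.04 for Hivep3-/- iNKT1, 4.78 and 4.96 for C57BL/6 iNKT2, 4.86 and 5.30 for Hivep3-/- iNKT2, 4.94 and 4.87 for C57BL/6 iNKT17 and 4.50 and 4.37 for Hivep3-/- iNKT17. It was lowest in iNKT1, with some overlap between C57BL/6 iNKT1 and Hivep3-/- iNKT17.

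Pdcd1 had 3 promoter regions. The one on the start site had 4.70 and 4.41 for C57BL/6 iNKT1, 4.67 and 4.66 for Hivep3-/- iNKT1, 5.46 and 5.50 for C57BL/6 iNKT2, 5.39 and 5.13 for Hivep3-/- iNKT2, 5.11 and 5.28 for C57BL/6 iNKT17 and 4.72 and 4.77 for Hivep3-/- iNKT17. The region at -1.2 kb ran from 4.14 to 4.48 in the iNKT1 libraries, from 5.64 to 5.80 in iNKT2 and from 4.82 to 5.21 in iNKT17, with no overlap between the subsets. The region at +1.0 kb ran from 4.01 to 4.29 in iNKT1, from 4.40 to 4.74 in iNKT2 and from 4.56 to 4.99 in iNKT17. Over the 6 promoter regions, the lowest adjusted p for a genotype difference in a subset was 0.113, at the Pdcd1 start site in iNKT17 (-0.45 ± 0.14, SE, limma with Benjamini-Hochberg adjustment).

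The first comparison asked whether loss of Hivep3 changed accessibility of these loci in each subset. Calls needed both a 3-fold difference and an adjusted p under 0.1, the thresholds of the study. No member was called in iNKT1 (41 tested), iNKT2 (48 tested) or iNKT17 (47 tested), nor for the change averaged over subsets (51 tested), whereas 1.15%, 1.68%, 0.271% and 0.529% of all regions tested were called in the same 4 comparisons. At an unadjusted p under 0.05 there were 14, 10, 14 and 17 members, beside 17.8%, 25.3%, 15.8% and 27.5% of all regions tested. At an adjusted p under 0.1 and any fold, 10 members differed in iNKT1 (5 higher and 5 lower), 8 in iNKT2 (3 higher and 5 lower), 4 in iNKT17 (2 higher and 2 lower) and 11 on average (4 higher and 7 lower), beside 9.42%, 16.4%, 4.65% and 19.7% of all regions tested. These counts moved when 1 library was left out, to 3 in iNKT1 without each library but C57BL/6 replicate 2, to 2 in iNKT2 without C57BL/6 replicate 2 and 5 without each of the others, to 0 in iNKT17 without C57BL/6 replicate 1 or Hivep3-/- replicate 2 and 2 without C57BL/6 replicate 2, and on average to 6 without Hivep3-/- iNKT1 replicate 2 or C57BL/6 iNKT17 replicate 1 and 7 without C57BL/6 iNKT1 or iNKT2 replicate 1. For member regions, and for genotype changes of the 4 member loci, the libraries that a named difference rests on are given beside it. They are not given for locus differences between subsets or for loci of the wider pathway. With the replicate number as a block within genotype, the counts were 10 in iNKT17 and 18 on average, and the shares of all regions also rose, to 12.2% and 28.3%.

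**Figure D2:**
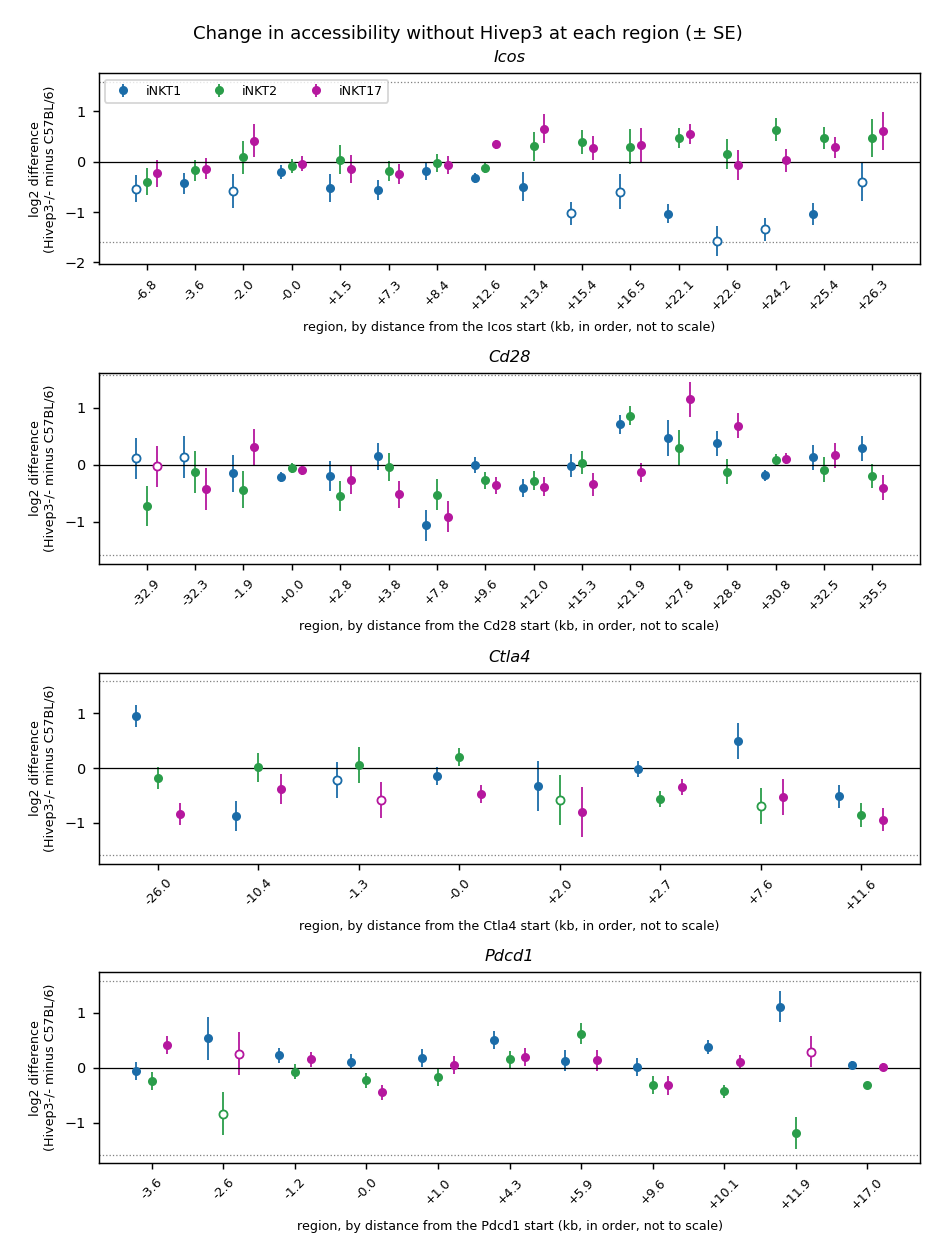
Log2 difference between Hivep3-/- and C57BL/6 libraries (y axis, with standard error) at every member, ordered by distance from the gene start in kb (x axis, not to scale), for iNKT1 (blue), iNKT2 (green) and iNKT17 (magenta). Open points were below the level tested and dotted lines mark a 3-fold difference. At Icos the iNKT1 points lie below 0 at all 16 regions, and at Ctla4 the iNKT17 points lie below 0 at all 8.

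At Icos, accessibility was lower without Hivep3 in iNKT1 cells at most regions. The iNKT1 cells of both genotypes were sorted as ICOS negative, and the study reported lower Icos transcript and ICOS protein without Hivep3. Whether the gate took matching cells in both genotypes was not tested. Both Hivep3-/- iNKT1 libraries were below both C57BL/6 iNKT1 libraries at 13 of the 16 regions, beside 28.3% of all regions, and above them at none, beside 25.2%. In iNKT2, 6 Icos regions were above and 2 below (27.2% and 25.6% of all regions), and in iNKT17, 8 were above and none below (21.8% and 22.3%). The median log2 difference of the 9 Icos regions tested in iNKT1 was -0.50, where the median of all regions tested was -0.02. Of the 9, 3 differed at an adjusted p under 0.1 by limma, beside 9.42% of all regions: Icos +12.6 kb (-0.32 ± 0.10, SE, adjusted p = 0.0673), Icos +22.1 kb (-1.03 ± 0.19, adjusted p = 0.00672) and Icos +25.4 kb (-1.04 ± 0.22, adjusted p = 0.0123). Icos +12.6 kb lies in an intron at the start of the annotated transcript Gm37039 and Icos +22.1 kb on the last exon. The differences at +22.1 and +25.4 kb kept an adjusted p under 0.1 without any 1 of the 4 iNKT1 libraries, and that at +12.6 kb lost it without each library but Hivep3-/- replicate 1 (0.236 to 0.618). Icos +22.1 kb had 2.41 and 2.35 in C57BL/6 and 1.20 and 1.51 for Hivep3-/- iNKT1, and Icos +25.4 kb had 2.87 and 2.91 and then 1.79 and 1.93. Both entered the iNKT1 test only through C57BL/6, the higher group (linear means 5.22 and 7.43, against 2.57 and 3.63 in Hivep3-/-). The filter thus favoured falls at these regions. The Icos regions left out of the iNKT1 test also had lower means without Hivep3, so their exclusion did not lower the median. Their smallest difference was at +26.3 kb (mean 0.91 in C57BL/6 iNKT1 against 0.51) and their largest at +22.6 kb (2.18 against 0.61).

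The region with the widest range at Icos was +24.2 kb, just past the end of the gene. It had 2.39 and 2.07 for C57BL/6 iNKT1 and 0.99 and 0.79 for Hivep3-/- iNKT1, 4.15 and 3.85 for C57BL/6 iNKT2 and 4.36 and 4.92 for Hivep3-/- iNKT2, and 4.20 and 4.30 for C57BL/6 iNKT17 and 4.19 and 4.37 for Hivep3-/- iNKT17. The genotypes did not overlap in iNKT1 or iNKT2, in opposite directions, and overlapped in iNKT17. The difference of -1.34 ± 0.23 in iNKT1 was not tested because both groups were below the accessible level, the difference of 0.64 ± 0.23 in iNKT2 had an adjusted p of 0.0888 (0.142 to 0.423 without any 1 iNKT2 library but Hivep3-/- replicate 1), and that of 0.03 ± 0.23 in iNKT17 an adjusted p of 0.977.

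Whether the change without Hivep3 differed between subsets was tested as an interaction, and 3 members were called for iNKT2 against iNKT1, 1 for iNKT17 against iNKT1 and none for iNKT17 against iNKT2, where 9 members had an unadjusted p under 0.05, beside 14.9% of all regions. The share called among all regions tested was 3.06%, 1.42% and 1.02%. Icos +24.2 kb was called for iNKT2 against iNKT1, with changes that differed by 1.98 ± 0.32 (adjusted p = 0.00365, limma), and by 1.02 with a pseudocount of 5, under 3-fold (adjusted p = 0.00805). Its neighbour Icos +22.6 kb, on the end of the last exon, was also called, at 1.73 ± 0.42 (adjusted p = 0.0285). That region had 2.33 and 2.03 for C57BL/6 iNKT1 and 0.40 and 0.82 for Hivep3-/- iNKT1, 2.85 and 3.29 and then 2.83 and 3.63 in iNKT2, and 4.07 and 4.14 and then 3.82 and 4.27 in iNKT17, so that the genotypes did not overlap in iNKT1 and overlapped in iNKT2 and iNKT17. Its call was lost without C57BL/6 iNKT1 replicate 1 (adjusted p = 0.109), Hivep3-/- iNKT1 replicate 1 (0.112) or C57BL/6 iNKT2 replicate 1 (0.105), and the difference fell under 3-fold without Hivep3-/- iNKT2 replicate 2 and with a pseudocount of 1 (1.27).

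All 16 Icos regions had a more positive change in iNKT2 than in iNKT1, with a median of 0.73 against 0.01 for all regions tested. An adjusted p under 0.1 was reached by 5 of them, beside 10.5% of all regions, and +15.4, +22.1, +24.2 and +25.4 kb kept it without any 1 library. In iNKT17 against iNKT1, all 16 were again more positive, with a median of 0.96 against 0.01. Here 6 reached an adjusted p under 0.1, beside 3.64% of all regions, from 0.0117 at +22.1 kb to 0.0958 at +22.6 kb, and +22.1 kb was the one that kept it without any 1 library. Both comparisons use the same 4 iNKT1 libraries. Only 9 of the 16 regions were accessible in an iNKT1 group, and the others entered through ICOS-positive groups, where they were higher. Icos +15.4, +22.6 and +24.2 kb are among the others. Their linear means in C57BL/6 and Hivep3-/- iNKT1 were 2.62 and 1.29, 4.56 and 1.55, and 4.72 and 1.86. The count of 16 is therefore a description. The mean level over the 5 iNKT2 marker loci was also lower in iNKT1 without Hivep3, at 4.58 to 4.69 against 4.93 to 5.01 in C57BL/6. Zbtb16, 1 of the 5, encodes the iNKT master regulator PLZF and had 4.61 and 4.50 in C57BL/6 iNKT1 against 4.07 and 4.0 in Hivep3-/-. In iNKT2, where the Icos locus levels of the genotypes overlapped, both were lower without Hivep3 too. The mean was 5.09 to 5.18 in C57BL/6 against 4.88 to 4.90, and Zbtb16 had 5.27 and 5.24 against 5.12 and 5.13. The part of other cell types in the Icos values was not tested.

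Across the ICOS gate, as a description, all iNKT1 libraries were below the other 8 at 10 of the 16 Icos regions, beside 7680 of all 63309 regions. In C57BL/6, 4 of 16 regions were at least 3-fold higher in iNKT2 than in iNKT1 and 7 in iNKT17 than in iNKT1, where 8.72% and 10.8% of all regions tested were. In Hivep3-/-, there were 9 and 9 such regions, beside 8.55% and 9.83%. The largest differences from iNKT1 in C57BL/6 were at Icos -2.0 kb in iNKT2 (1.43 and 0.49 in iNKT1 against 3.44 and 3.38) and Icos +16.5 kb in iNKT17 (1.43 and 0.82 against 3.10 and 3.23). In Hivep3-/- the largest were at Icos +24.2 kb in iNKT2, at 3.75, and Icos +22.6 kb in iNKT17, at 3.43. Icos +16.5 kb, on an exon, had 0.82 and 0.24 for Hivep3-/- iNKT1, 2.40 and 2.98 for C57BL/6 iNKT2, 3.38 and 2.59 for Hivep3-/- iNKT2, and 3.46 and 3.51 for Hivep3-/- iNKT17. Icos -2.0 kb had 0.57 and 0.20 for Hivep3-/- iNKT1, 3.76 and 3.23 for Hivep3-/- iNKT2, 2.29 and 2.40 for C57BL/6 iNKT17 and 2.61 and 2.91 for Hivep3-/- iNKT17.

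Between the ICOS-positive subsets, no Icos region was called by limma for iNKT17 against iNKT2, with 7 at an unadjusted p under 0.05 in C57BL/6 and 6 in Hivep3-/-, beside 51.9% and 53.2% of all regions. At any fold, 4 regions were higher and 3 lower in iNKT17 at an adjusted p under 0.1 in C57BL/6, and 3 were higher and 3 lower in Hivep3-/-, beside 52.3% and 53.9% of all regions in either direction.

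**Figure D3:**
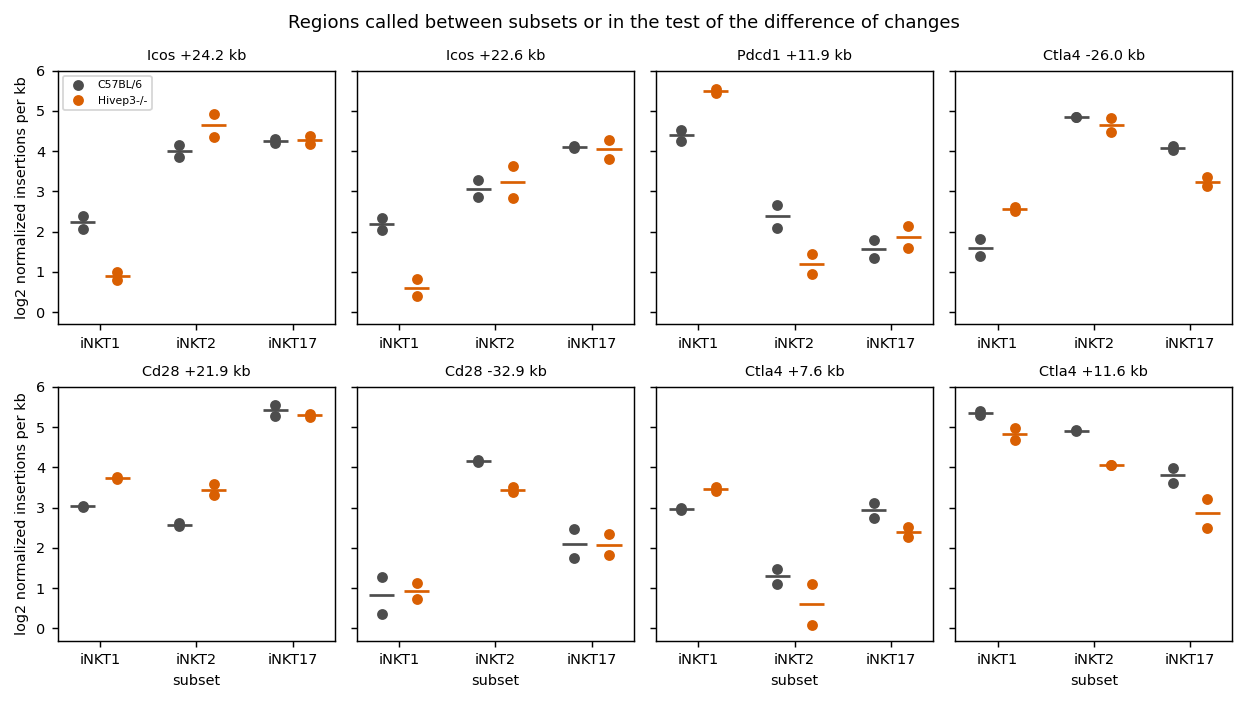
Log2 normalized insertions per kb (y axis) at 8 member regions in each library, by subset (x axis) and genotype (grey C57BL/6, orange Hivep3-/-), with each point 1 library and each bar the mean of 2. Icos +24.2 kb and Icos +22.6 kb are lower in the orange iNKT1 points, Pdcd1 +11.9 kb moves up in iNKT1 and down in iNKT2, and Ctla4 -26.0 kb moves up in iNKT1 and down in iNKT17.

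Cd28 had 14 of 16 regions accessible in all groups, and its largest subset differences lay at its distal regions. Cd28 -32.9 kb and its neighbour at -32.3 kb were open mainly in iNKT2. Cd28 -32.9 kb had 1.28 and 0.36 for C57BL/6 iNKT1 and 1.14 and 0.74 for Hivep3-/- iNKT1, 4.14 and 4.19 for C57BL/6 iNKT2 and 3.50 and 3.39 for Hivep3-/- iNKT2, and 2.46 and 1.74 for C57BL/6 iNKT17 and 1.82 and 2.34 for Hivep3-/- iNKT17. All 4 iNKT2 libraries were above the other 8, and iNKT2 exceeded iNKT1 by 3.34 ± 0.35 in C57BL/6 (10.1-fold, adjusted p = 5.69e-06) and by 2.51 ± 0.35 in Hivep3-/- (adjusted p = 5.02e-05). iNKT17 was below iNKT2 by 2.06 on the log2 scale in C57BL/6 (-2.06 ± 0.35, adjusted p = 0.000294).

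Cd28 -32.3 kb had 1.49 and 0.36 for C57BL/6 iNKT1, 0.88 and 1.25 for Hivep3-/- iNKT1, 3.89 and 3.97 for C57BL/6 iNKT2, 3.90 and 3.70 for Hivep3-/- iNKT2, 2.72 and 1.96 for C57BL/6 iNKT17 and 2.08 and 1.76 for Hivep3-/- iNKT17. It was called in the same 3 comparisons and also for iNKT17 against iNKT2 in Hivep3-/- (-1.88 ± 0.37, adjusted p = 0.00083). The C57BL/6 call between iNKT17 and iNKT2 (-1.59 ± 0.37, adjusted p = 0.00277) fell under 3-fold without C57BL/6 iNKT2 replicate 2 (-1.56) or C57BL/6 iNKT17 replicate 2 (-1.21). These regions lie next to each other and are not independent observations.

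Cd28 +21.9 kb, in an intron, was the iNKT17 region of the locus. It had 3.04 and 3.02 for C57BL/6 iNKT1 and 3.72 and 3.76 for Hivep3-/- iNKT1, 2.61 and 2.55 for C57BL/6 iNKT2 and 3.31 and 3.58 for Hivep3-/- iNKT2, and 5.56 and 5.27 for C57BL/6 iNKT17 and 5.32 and 5.26 for Hivep3-/- iNKT17. iNKT17 exceeded iNKT1 by 2.38 ± 0.17 (5.22-fold, adjusted p = 7.76e-08) and iNKT2 by 2.84 ± 0.17 (7.14-fold, adjusted p = 4.25e-08) in C57BL/6. Without Hivep3 this region rose in the subsets where it was low, by 0.71 ± 0.17 in iNKT1 (1.64-fold, adjusted p = 0.022) and by 0.86 ± 0.17 in iNKT2 (1.82-fold, adjusted p = 0.00545), and the difference in iNKT17 was -0.13 ± 0.17. The rise in iNKT2 kept an adjusted p under 0.1 without any 1 library, and that in iNKT1 lost it without each library but C57BL/6 replicate 2 (0.124 to 0.183). The changes differed between iNKT17 and iNKT1 by -0.84 ± 0.24 (adjusted p = 0.0981) and between iNKT17 and iNKT2 by -0.99 ± 0.24 (adjusted p = 0.0593), under 3-fold in both. The first lost an adjusted p under 0.1 without any 1 of its 8 libraries (0.119 to 0.318), and the second without 5 of 8 (0.112 to 0.199). The contrast between iNKT17 and iNKT1 was no longer called in Hivep3-/-, at 1.55 and under 3-fold.

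Cd28 +7.8 kb fell without Hivep3 on average over the subsets (-0.83 ± 0.16, adjusted p = 0.00374), with 4.24 and 4.02 against 3.06 and 3.08 in iNKT1, 4.23 and 4.04 against 3.25 and 3.98 in iNKT2, and 3.80 and 3.10 against 2.70 and 2.40 in iNKT17. The Hivep3-/- libraries were below the C57BL/6 libraries in each subset. Cd28 +27.8 kb rose in iNKT17, from 2.35 and 2.83 to 3.40 and 4.08 (1.15 ± 0.31, adjusted p = 0.0774, and 0.117 to 0.418 without any 1 iNKT17 library but Hivep3-/- replicate 1). In Hivep3-/- cells, Cd28 +3.8 kb was lower in iNKT17 (2.77 and 2.00) than in iNKT1 (4.05 and 4.02), by 1.65 on the log2 scale (-1.65 ± 0.24, adjusted p = 6.97e-05, and -1.26 without Hivep3-/- iNKT17 replicate 2, under 3-fold). That region had 3.99 and 3.77 for C57BL/6 iNKT1, 3.25 and 2.98 for C57BL/6 iNKT2, 3.12 and 3.05 for Hivep3-/- iNKT2 and 2.96 and 2.85 for C57BL/6 iNKT17.

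Ctla4, which encodes the inhibitory receptor, had lower values at all 8 regions in iNKT17 without Hivep3. Both Hivep3-/- iNKT17 libraries were below both C57BL/6 iNKT17 libraries at 8 of 8 regions, beside 22.3% of all regions. The median log2 difference of the 7 tested was -0.53, against -0.01 for all regions tested, and 2 had an adjusted p under 0.1, beside 4.65% of all regions. In iNKT2, 4 of 8 were below and none above (25.6% and 27.2% of all regions), and in iNKT1, 3 were below and 2 above (28.3% and 25.2%).

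Ctla4 +11.6 kb, downstream of the gene, had 5.39 and 5.30 for C57BL/6 iNKT1 and 4.98 and 4.67 for Hivep3-/- iNKT1, 4.93 and 4.90 for C57BL/6 iNKT2 and 4.06 and 4.06 for Hivep3-/- iNKT2, and 3.99 and 3.62 for C57BL/6 iNKT17 and 3.22 and 2.50 for Hivep3-/- iNKT17. The Hivep3-/- libraries were lower in each subset with no overlap. The difference was -0.85 ± 0.21 in iNKT2 (adjusted p = 0.0221), -0.94 ± 0.21 in iNKT17 (adjusted p = 0.038), -0.52 ± 0.21 in iNKT1 (adjusted p = 0.211) and -0.77 ± 0.12 on average (1.71-fold lower, adjusted p = 0.00147). The average kept an adjusted p under 0.1 without any 1 library. The difference in iNKT17 lost it without C57BL/6 replicate 1 (0.289) or Hivep3-/- replicate 2 (0.2), and that in iNKT2 without either C57BL/6 library (0.115 and 0.103). Between subsets it was called in Hivep3-/-, where iNKT17 was below iNKT1 by 1.96 on the log2 scale (-1.96 ± 0.21, adjusted p = 4.74e-06).

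Ctla4 -26.0 kb changed in opposite directions in iNKT1 and iNKT17. It entered the iNKT1 test only through Hivep3-/-, the higher group (linear mean 5.89, against 3.07 in C57BL/6). It had 1.82 and 1.39 for C57BL/6 iNKT1 and 2.61 and 2.51 for Hivep3-/- iNKT1, 4.84 and 4.84 for C57BL/6 iNKT2 and 4.47 and 4.83 for Hivep3-/- iNKT2, and 4.02 and 4.12 for C57BL/6 iNKT17 and 3.35 and 3.13 for Hivep3-/- iNKT17. It rose in iNKT1 (0.95 ± 0.20, adjusted p = 0.0135) and fell in iNKT17 (-0.83 ± 0.20, adjusted p = 0.0528), and the change in iNKT17 was below that in iNKT1 by 1.79 on the log2 scale (-1.79 ± 0.29, adjusted p = 0.00847), which was called. Without C57BL/6 iNKT1 replicate 2 this difference was -1.57 (adjusted p = 0.0203), just under 3-fold, and with a pseudocount of 1 it was -1.54. The rise in iNKT1 lost an adjusted p under 0.1 without C57BL/6 replicate 2 (0.108) or Hivep3-/- replicate 1 (0.109), and the fall in iNKT17 without each library but Hivep3-/- replicate 1 (0.191 to 0.212). The separation of the subsets was large in C57BL/6, where iNKT2 exceeded iNKT1 by 3.24 ± 0.20 (9.42-fold, adjusted p = 9.79e-08) and iNKT17 exceeded iNKT1 by 2.47 ± 0.20 (5.53-fold, adjusted p = 3.61e-07). In Hivep3-/-, iNKT2 exceeded iNKT1 by 2.10 ± 0.20 (adjusted p = 2.02e-06), and iNKT17 by 0.68, which was not called.

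Ctla4 +7.6 and +2.7 kb were the regions of the locus where all iNKT2 libraries were below the other 8, as they were at 4467 of all 63309 regions. Ctla4 +7.6 kb had 2.95 and 2.99 for C57BL/6 iNKT1, 3.51 and 3.41 for Hivep3-/- iNKT1, 1.48 and 1.11 for C57BL/6 iNKT2, 1.10 and 0.10 for Hivep3-/- iNKT2, 3.12 and 2.75 for C57BL/6 iNKT17 and 2.53 and 2.28 for Hivep3-/- iNKT17. iNKT2 was below iNKT1 by 1.67 on the log2 scale in C57BL/6 (-1.67 ± 0.33, adjusted p = 0.000844) and by 2.86 in Hivep3-/- (-2.86 ± 0.33, adjusted p = 8.49e-06), and iNKT17 was above iNKT2 by 1.63 ± 0.33 and 1.80 ± 0.33 in the same order. Both C57BL/6 calls fell under 3-fold without C57BL/6 iNKT2 replicate 2, at -1.49 and 1.45. The call between iNKT17 and iNKT2 did so also without C57BL/6 iNKT17 replicate 1, at 1.45, and in Hivep3-/- without Hivep3-/- iNKT2 replicate 2, at 1.30.

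Pdcd1, which encodes PD-1, had higher means in iNKT1 at 10 of 11 regions and lower means in iNKT2 at 9 of 11 without Hivep3. In iNKT1, both Hivep3-/- libraries lay above both C57BL/6 libraries at 6 of 11 regions and below them at none (25.2% and 28.3% of all regions). The median difference was 0.18, against -0.02 for all regions tested. At an adjusted p under 0.1, 3 of the 11 were higher, beside 9.42% of all regions in either direction. In iNKT2, 7 regions were below and 1 above (25.6% and 27.2%). The median difference over the 10 tested was -0.24, against -0.0011 for all regions tested. At an adjusted p under 0.1, 3 were lower and 1 higher, beside 16.4% of all regions in either direction. In iNKT17, 2 were below and 1 above (22.3% and 21.8%), and no region reached an adjusted p under 0.1 by limma, with 2 at an unadjusted p under 0.05. The shares of all regions were 4.65% and 15.8%.

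Pdcd1 +11.9 kb, which overlaps a coding exon, was 1 of 3 Pdcd1 regions, with -2.6 and -3.6 kb, where all iNKT1 libraries were above the other 8. Of all 63309 regions, 10259 had that order. It had 4.26 and 4.52 for C57BL/6 iNKT1 and 5.46 and 5.56 for Hivep3-/- iNKT1, 2.10 and 2.66 for C57BL/6 iNKT2 and 1.44 and 0.94 for Hivep3-/- iNKT2, and 1.35 and 1.79 for C57BL/6 iNKT17 and 1.59 and 2.14 for Hivep3-/- iNKT17. The genotypes did not overlap in iNKT1 or iNKT2. The region entered the iNKT2 test only through C57BL/6, the higher group (linear mean 5.32, against 2.32 in Hivep3-/-). Without Hivep3 it rose in iNKT1 (1.12 ± 0.29, 2.17-fold, adjusted p = 0.036) and fell in iNKT2 (-1.19 ± 0.29, 2.28-fold lower, adjusted p = 0.0192). The rise lost an adjusted p under 0.1 without each iNKT1 library but C57BL/6 replicate 2 (0.171 to 0.281), and the fall without Hivep3-/- iNKT2 replicate 2 (0.116). The changes differed by -2.31 ± 0.41 (4.94-fold, adjusted p = 0.00612), the largest interaction among the members, and the call held without any 1 of the 8 libraries compared. With a pseudocount of 5 it was under 3-fold, at -1.45 (adjusted p = 0.000571).

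The subset difference at Pdcd1 +11.9 kb was wider in Hivep3-/- cells. iNKT2 was below iNKT1 by 2.01 on the log2 scale in C57BL/6 (-2.01 ± 0.29, adjusted p = 7.47e-05) and by 4.31 in Hivep3-/- (-4.31 ± 0.29, adjusted p = 8.47e-08). iNKT17 was below iNKT1 by 2.82 (-2.82 ± 0.29, adjusted p = 2.45e-06) and by 3.64 (-3.64 ± 0.29, adjusted p = 2.77e-07). The mean level over the 5 iNKT1 marker loci was 5.28 to 5.34 for C57BL/6 iNKT1 and 5.36 to 5.46 for Hivep3-/- iNKT1, and 4.03 to 4.05 and 3.86 to 3.93 in iNKT2. Klrb1c went the other way in iNKT1, with 4.98 and 4.98 in C57BL/6 against 4.81 and 4.75 in Hivep3-/-. Il2rb did so in iNKT2, with 5.67 and 5.76 against 5.77 and 5.85. In each subset the group means of the rest of the list moved with its mean. The part of these differences in the Pdcd1 values was not tested.

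Pdcd1 +10.1 kb, in an intron, also moved in opposite directions. It rose in iNKT1, from 6.09 and 6.19 to 6.49 and 6.53 (0.38 ± 0.12, adjusted p = 0.0946), and fell in iNKT2, from 6.27 and 6.55 to 6.01 and 5.96 (-0.43 ± 0.12, adjusted p = 0.0389), and the changes differed by -0.81 ± 0.17 (adjusted p = 0.0154), which held without any 1 library while the rise was lost without each iNKT1 library (0.17 to 0.464) and the fall without each iNKT2 library (0.114 to 0.297) but C57BL/6 iNKT2 replicate 1. Pdcd1 +17.0 kb fell in iNKT2 from 7.79 and 7.96 to 7.58 and 7.52 (-0.32 ± 0.07, adjusted p = 0.0132, and 0.141 without C57BL/6 iNKT2 replicate 2). In Hivep3-/-, Pdcd1 -2.6 kb was called between iNKT2 (1.74 and 0.44) and iNKT1 (3.39 and 3.44), at -2.32 ± 0.40 (adjusted p = 0.000241).

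Over Cd28, Ctla4 and Pdcd1 together, 5 of 35 regions were called between iNKT2 and iNKT1 in C57BL/6 (3 higher and 2 lower in iNKT2), beside 16% of all regions tested. For iNKT17 against iNKT1 there were 3 of 33 tested (20.5% of all regions) and, with Icos included, 4 of 50 for iNKT17 against iNKT2 (16.2%). In Hivep3-/- the counts were 6 of 35 (17.3%), 3 of 31 (19.3%) and 4 of 48 (15.6%). The shares of members were not tested against these.

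**Figure D4:**
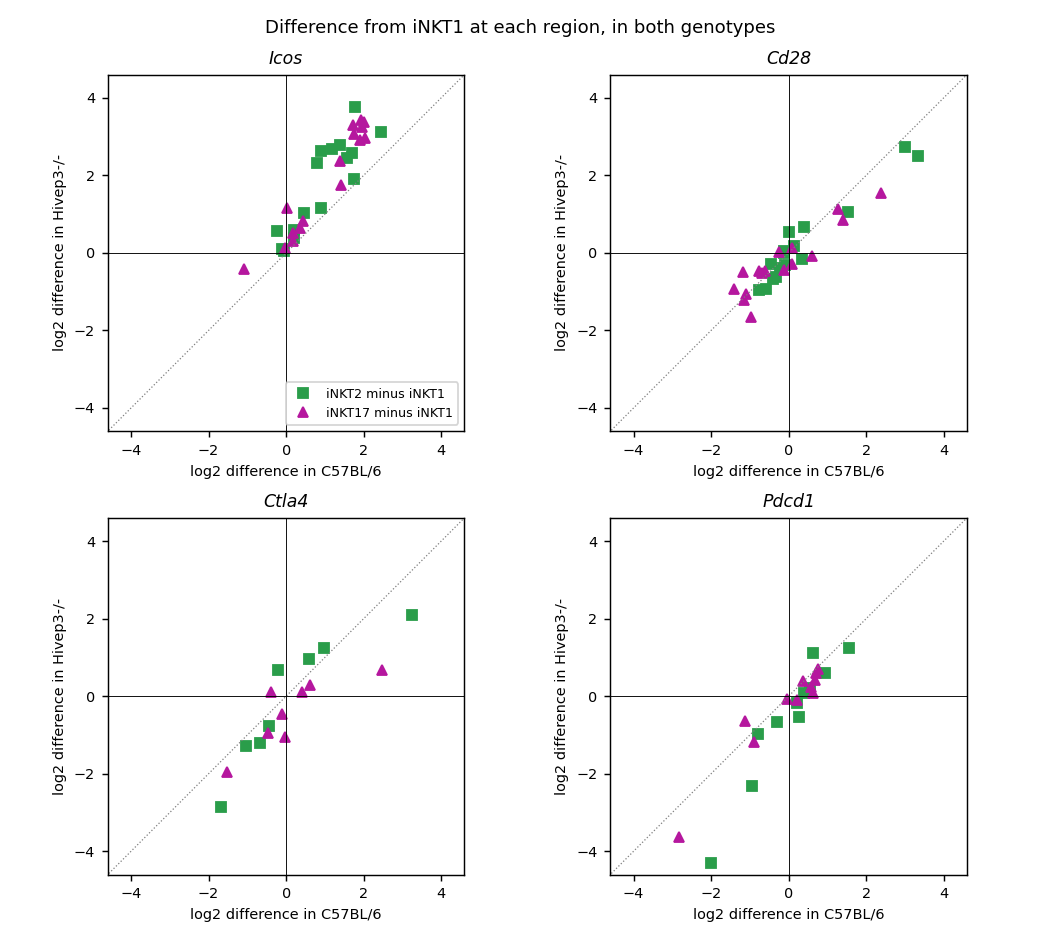
Log2 difference of iNKT2 (squares) or iNKT17 (triangles) from iNKT1 at each member, in C57BL/6 (x axis) and in Hivep3-/- (y axis), with the dotted line marking equal differences. At Icos all points lie above the line, the lowest left points at Pdcd1 are the +11.9 kb region, and at Ctla4 both points of the -26.0 kb region lie below the line.

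Summed over a locus, the level was the log2 of the mean linear value over its regions, tested with limma over all protein-coding loci and called at an adjusted p under 0.1. Icos had 4.05 and 3.97 for C57BL/6 iNKT1, 3.70 and 3.49 for Hivep3-/- iNKT1, 4.43 and 4.29 for C57BL/6 iNKT2, 4.42 and 4.40 for Hivep3-/- iNKT2, 4.33 and 4.22 for C57BL/6 iNKT17 and 4.44 and 4.38 for Hivep3-/- iNKT17. The order of the means was Hivep3-/- iNKT1, C57BL/6 iNKT1 and then the 4 ICOS-positive groups, whose libraries overlapped. The Icos locus level was lower without Hivep3 in iNKT1 (-0.42 ± 0.09, adjusted p = 0.0387), and the change was more positive by 0.46 ± 0.13 in iNKT2 (adjusted p = 0.0815) and by 0.55 ± 0.13 in iNKT17 (adjusted p = 0.0959). The genotype call was lost without C57BL/6 iNKT1 replicate 1 (0.265) or 2 (0.109) or Hivep3-/- iNKT1 replicate 2 (0.327), and the differences of changes were lost without any 1 library but Hivep3-/- iNKT1 replicate 1 for iNKT2 (0.117 to 0.267) and without any 1 library for iNKT17 (0.121 to 0.342), the latter also with repeated quantile normalization (0.122). Over all loci, 5.67% were called for the genotype in iNKT1, 7.3% for the difference of changes between iNKT2 and iNKT1, and 1.82% for that between iNKT17 and iNKT1.

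Ctla4 had 3.93 and 3.76 for C57BL/6 iNKT1, 3.72 and 3.59 for Hivep3-/- iNKT1, 3.93 and 3.98 for C57BL/6 iNKT2, 3.69 and 3.78 for Hivep3-/- iNKT2, 3.92 and 3.80 for C57BL/6 iNKT17 and 3.33 and 3.30 for Hivep3-/- iNKT17. Both Hivep3-/- iNKT17 libraries were below the other 10, which ran from 3.59 to 3.98. Its level was lower without Hivep3 in iNKT17 (-0.54 ± 0.10, adjusted p = 0.0344, where 2.25% of loci were called) and on average (-0.32 ± 0.05, adjusted p = 0.00725, 15.1% called), and was not called in iNKT2 (-0.22 ± 0.10, adjusted p = 0.206, 12.3% called). The call in iNKT17 was lost without any 1 of its 4 libraries (0.105 to 0.247) and for the gene body alone (0.124), and that on average was kept without any 1 library. The difference of changes between iNKT17 and iNKT2 was -0.32 ± 0.13 (adjusted p = 0.386, 1.11% of loci called), and that between iNKT17 and iNKT1 -0.35 ± 0.13 (adjusted p = 0.313). The mean over the 4 regulatory T cell loci, in cells that are known for CTLA-4, was 4.76 to 4.91 for C57BL/6 iNKT17 and 5.08 in both libraries for Hivep3-/- iNKT17, and its part was not tested.

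The Cd28 and Pdcd1 locus levels were not called for the genotype in any subset or on average, with adjusted p from 0.138 to 0.849. Cd28 had 5.18 and 5.00 for C57BL/6 iNKT1, 5.03 and 4.92 for Hivep3-/- iNKT1, 5.21 and 5.06 for C57BL/6 iNKT2, 5.06 and 4.98 for Hivep3-/- iNKT2, 5.01 and 4.87 for C57BL/6 iNKT17 and 4.83 and 4.70 for Hivep3-/- iNKT17, with the Hivep3-/- iNKT17 libraries below the other 10. Pdcd1 had 5.34 and 5.43 for C57BL/6 iNKT1, 5.63 and 5.60 for Hivep3-/- iNKT1, 5.54 and 5.71 for C57BL/6 iNKT2, 5.44 and 5.38 for Hivep3-/- iNKT2, 5.43 and 5.66 for C57BL/6 iNKT17 and 5.60 and 5.58 for Hivep3-/- iNKT17, and the genotypes did not overlap in iNKT1 and iNKT2. The Pdcd1 changes differed between iNKT2 and iNKT1 by -0.45 ± 0.12 (adjusted p = 0.0677, and 0.101 to 0.21 without any 1 library but C57BL/6 iNKT2 replicate 1).

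Deviations from the group means correlated weakly between same-numbered libraries, at 0.12 to 0.17 within a genotype and 0.09 to 0.17 between genotypes, and the titles tie a number to a mouse. With the replicate number as a block within genotype, the Pdcd1 genotype differences of 0.24 in iNKT1 and -0.21 in iNKT2 were called (adjusted p = 0.013 and 0.0128), as were those of Cd28 of -0.17 in iNKT17 (0.0557) and -0.14 on average (0.00746), and 7 of 16 genotype tests of the 4 loci were called where 3 were without the block. The shares of all loci under the block were 13.5% in iNKT1, 26.2% in iNKT2, 12.9% in iNKT17 and 29.7% on average. The Pdcd1 difference of changes between iNKT17 and iNKT2, 0.26, was then called as well (adjusted p = 0.0682), and so were 7 regions for iNKT17 against iNKT2 at any fold (9.3% of all regions), where 2 were without the block (3.29%).

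Between subsets at the locus level, shares of 46.1%, 49.1% and 43.5% of all loci were called in C57BL/6 (iNKT2 against iNKT1, iNKT17 against iNKT1 and iNKT17 against iNKT2) and 49.5%, 47.5% and 45.3% in Hivep3-/-. In C57BL/6, Pdcd1 was higher in iNKT2 than in iNKT1 (0.24 ± 0.08, adjusted p = 0.0401), and in Hivep3-/- it was lower (-0.20 ± 0.08, adjusted p = 0.0729). In Hivep3-/-, iNKT17 was below iNKT2 for Ctla4 (-0.42 ± 0.10, adjusted p = 0.00616) and Cd28 (-0.25 ± 0.09, adjusted p = 0.0493), and below iNKT1 for Ctla4 (-0.34 ± 0.10, adjusted p = 0.0166) and Cd28 (-0.20 ± 0.09, adjusted p = 0.0978). With the replicate block, Cd28 was also lower in iNKT17 than in iNKT1 and iNKT2 in C57BL/6 (-0.15 and -0.20, adjusted p = 0.0193 and 0.00586), and Pdcd1 was higher in iNKT17 than in iNKT1 in C57BL/6 (0.16, adjusted p = 0.0118) and than in iNKT2 in Hivep3-/- (0.18, adjusted p = 0.00868).

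**Figure D5:**
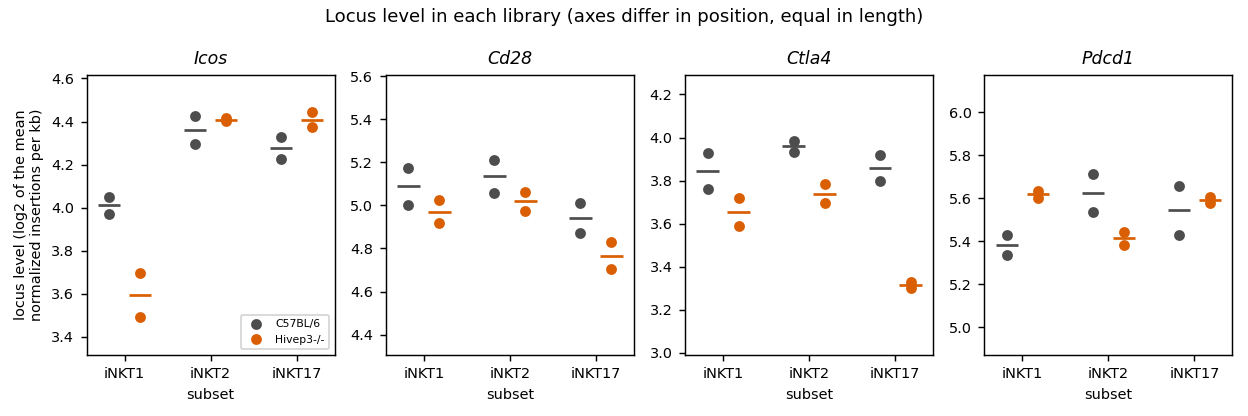
Locus level (y axis, log2 of the mean normalized insertions per kb) of the 4 genes in each library by subset (x axis) and genotype (grey C57BL/6, orange Hivep3-/-), with each point 1 library and each bar the mean of 2. Hivep3-/- iNKT1 is lowest for Icos and Hivep3-/- iNKT17 is lowest for Ctla4.

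The wider pathway was read at the same scale from 32 genes: 5 ligands, 11 other co-receptors and 16 intracellular partners. Without Hivep3, 1 of 32 was called in iNKT1, 9 in iNKT2, 2 of 31 tested in iNKT17 and 7 on average, beside 5.67%, 12.3%, 2.25% and 15.1% of all loci. The median differences of the pathway were 0.04, 0.0049, 0.06 and 0.02, where those of all loci were -0.0005, -0.03, -0.03 and -0.02. In iNKT1 the 1 locus was Cd6, a co-receptor that tunes the T cell receptor signal, which fell (-0.31 ± 0.07, adjusted p = 0.0586). In iNKT2, 6 rose and 3 fell. Of the 11 co-receptors, 5 were called. Cd96 (0.42 ± 0.09) and Cd226 (0.43 ± 0.10), which compete for shared ligands, rose, and Btla (-0.40 ± 0.10), Lag3 (-0.29 ± 0.09) and Havcr2 (-0.47 ± 0.13) fell. Of the ligands, Pdcd1lg2, which encodes PD-L2, rose in iNKT2 (0.35 ± 0.05, adjusted p = 0.00545), in iNKT17 (0.26 ± 0.05, adjusted p = 0.066) and on average (0.26 ± 0.03, adjusted p = 0.00145). Among the partners, Grap2, the adaptor GADS that binds CD28, rose in iNKT2 (0.29 ± 0.05), iNKT17 (0.25 ± 0.05) and on average (0.24 ± 0.03). Icosl, the ligand of ICOS, changed more positively in iNKT2 than in iNKT1 (0.34 ± 0.09, adjusted p = 0.0771) and in iNKT17 than in iNKT1 (0.44 ± 0.09, adjusted p = 0.0679).

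Over the 12 libraries, the locus levels most like that of Icos among 15405 protein-coding loci were Map2k6 (Pearson r = 0.99), Fntb (0.96) and Myadml2 (0.96). Those most like Cd28 were Srl (0.97), Psmb9 (0.96) and Rpl3 (0.95), those most like Ctla4 were Rps6ka5 (0.91), Ndufa7 (0.90) and Shisal1 (0.90), and those most like Pdcd1 were Slc22a12 (0.79), Gria3 (0.78) and Aoc2 (0.77). Shisal1, Slc22a12 and Gria3 each rest on 1 region, and Map2k6 and Aoc2 on 2. Slc22a12 (1.82 to 3.10) and Gria3 (0.51 to 3.23) also ran near or under the accessible level, which is 2.32 on the log2 scale. These are descriptions of the highest of many values, and the points share libraries and the scaling of each library.

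As a check of the labels, 4 of the 5 iNKT1 marker loci (Tbx21, Klrb1c, Ifng and Xcl1, but not Il2rb) and the iNKT17 marker loci Sdc1, Il23r, Ccr6 and Il17re were higher in all 4 libraries of their own subset than in the other 8, and 1 of 5 iNKT2 marker loci, Zbtb16, was. Il2rb, which encodes the sorting marker CD122, was instead higher in the 4 iNKT17 libraries than in the other 8. Sdc1 (CD138) and Izumo1r also encode sorting markers, so these loci are no independent check. Mean levels over markers of other cells were 4.52 to 4.83 for B cells (3 of 4 genes with a region, not Ms4a1), 2.45 to 4.41 for myeloid cells (3 of 4, not Csf1r, highest in iNKT1), 5.16 to 5.56 for double-positive thymocytes (2 of 4, not Rag1 or Cd8b1) and 3.18 to 3.90 for thymic epithelium (3 of 3). The Hivep3 locus itself had levels of 4.01 and 4.07 in C57BL/6 and 4.29 and 4.33 for Hivep3-/- iNKT1, 4.33 and 4.37 against 4.25 and 4.28 in iNKT2 and 3.45 and 3.50 against 3.51 and 3.67 in iNKT17, and accessibility of a locus does not check a deletion whose position is not given in the sources used here. The total reads of each library were not given either, the linear values of every library summed to between 1915051 and 1919037, and replicate pairs had Pearson r from 0.963 to 0.986 over all regions.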

How the data were processed

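Thymic iNKT subsets of both genotypes were profiled by ATAC-seq, 2 libraries per group. The authors trimmed reads to 50 bp (Trimmomatic 0.39, per the submitters' processing notes), mapped them to mm10 with the ENCODE pipeline, merged peaks into 500-bp regions with chromVAR, counted insertions per replicate and normalized with voom. The deposited values are log2 normalized insertions per kb, and depth is not known from them. No column was left unmapped (0).

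Regions were assigned with GENCODE vM21. limma 3.58.1 (R 4.3.3) was fitted to all 63309 regions with 1 mean per group over the 12 libraries and a variance trend (6 residual degrees of freedom, prior 7.17). Regions below a linear mean of 5 in every compared group were left out, p-values were Benjamini-Hochberg adjusted per comparison, and calls needed an adjusted p under 0.1 and 3-fold. Locus levels were fitted likewise over protein-coding loci with no fold threshold (prior 3.69). The fit was tested on simulated data. With 2 libraries a group, an exact permutation test cannot go below 0.333, so none was used.

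The titles number the mice and the methods pool thymi and join the subsets for transposition. Deviations of same-numbered libraries correlated at 0.12 to 0.17 within a genotype and at 0.09 to 0.17 between genotypes. Libraries of different genotypes cannot share a pool, so these correlations cannot show a pairing. The numbers were taken to pair subsets within a genotype only because the titles tie a number to a mouse. Both blocks were fitted. p-values measure the spread between these libraries. Members, motifs and gene lists were chosen with earlier results of these data known. Values are printed for promoter regions, regions called for the genotype or an interaction, and the largest called region per locus and subset comparison. The naming of other regions followed sight of their values. Alternatives were no filter, a filter on the 12-library mean at 5, a pseudocount of 1 or 5, repeated quantile normalization, only the compared libraries, replicate blocks, flanks of 0 and 50 kb for loci, and leaving out each library. Of the iNKT17 marker list, 1 locus and the mean over the list are not reported here.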

Additional observations from a re-analysis of the deposited data

Results flagged for a closer look

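The change without Hivep3 differed between subsets, by the test of the difference itself, at 4 regions and 3 loci. Between iNKT2 and iNKT1 the difference was 1.73 at Icos +22.6 kb (adjusted p = 0.0285, limma), 1.98 at Icos +24.2 kb (adjusted p = 0.00365) and -2.31 at Pdcd1 +11.9 kb (adjusted p = 0.00612). Between iNKT17 and iNKT1 it was -1.79 at Ctla4 -26.0 kb (adjusted p = 0.00847). Of all regions tested, 3.06% were called for iNKT2 against iNKT1 and 1.42% for iNKT17 against iNKT1. The calls at Icos +22.6 kb and Ctla4 -26.0 kb were each lost without at least 1 single library. At the locus level it was 0.46 for Icos (adjusted p = 0.0815) and -0.45 for Pdcd1 (adjusted p = 0.0677) between iNKT2 and iNKT1, and 0.55 for Icos between iNKT17 and iNKT1 (adjusted p = 0.0959). Of all loci, 7.3% and 1.82% were called in these comparisons. Each of the 3 locus calls was lost when almost any 1 of its libraries was left out. The tests against iNKT1 share the 4 iNKT1 libraries. Icos +22.6 and +24.2 kb were below the accessible level in both iNKT1 groups, Ctla4 -26.0 kb in C57BL/6 iNKT1 and Pdcd1 +11.9 kb in Hivep3-/- iNKT2. Groups of 2 libraries are too small to look for single libraries that stand apart.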

How the results depend on the processing

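Leaving out 1 library moved the count of members called from 0 to between 0 and 1 for the genotype in iNKT1 (1 without C57BL/6 iNKT1 replicate 2), from 3 to between 3 and 5 for iNKT17 against iNKT1 in C57BL/6 (5 without either C57BL/6 iNKT17 library), and from 4 to between 2 and 4 for iNKT17 against iNKT2 in C57BL/6 (2 without C57BL/6 iNKT2 replicate 2). For the difference of genotype changes it moved the count from 3 to between 2 and 7 for iNKT2 against iNKT1 (7 without Hivep3-/- iNKT2 replicate 1 and 5 without C57BL/6 iNKT2 replicate 2), from 1 to between 1 and 3 for iNKT17 against iNKT1 (3 without Hivep3-/- iNKT17 replicate 1, 2 without Hivep3-/- iNKT1 replicate 2, C57BL/6 iNKT17 replicate 2 or Hivep3-/- iNKT17 replicate 2), and from 0 to between 0 and 1 for iNKT17 against iNKT2 (1 without Hivep3-/- iNKT2 replicate 1 or Hivep3-/- iNKT17 replicate 1).

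A pseudocount of 5, which shrinks the folds of low regions, gave 2 calls for iNKT2 against iNKT1 and 1 for iNKT17 against iNKT2 in C57BL/6, and in Hivep3-/- 1 for iNKT2 against iNKT1, 1 for iNKT17 against iNKT1 and 0 for iNKT17 against iNKT2. It left 0 for both differences of changes against iNKT1. A pseudocount of 1 gave 2 for iNKT17 against iNKT2 in either genotype and 0 for the difference of changes between iNKT17 and iNKT1. Genotype calls of the 4 loci rose from 3 to 7 with the replicate block, crossed or within genotype, and to 6 with 50 kb on either side. Neither block changed the call of a member region at the 3-fold threshold. No result changed direction under any alternative that was run. Fits to the compared libraries alone were not run for averages and differences of changes.

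The files give no read depth, so the counting error behind a value is unknown, and the regions near or under the accessible level, among them Icos +22.6 and +24.2 kb in iNKT1, are the least precise. With 2 libraries a group, most differences under 3-fold did not keep an adjusted p under 0.1 without 1 of their libraries.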

Other observations

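Outside the 10-kb limit, 2 regions near the cluster had values that were chosen after they were seen. The region at chr1:60875159-60875658, 1.3 kb before the Ctla4 locus as defined here, had 6.22 and 6.27 for C57BL/6 iNKT17 and 5.20 and 5.26 for Hivep3-/- iNKT17, 5.04 and 5.26 and then 3.99 and 3.62 in iNKT2, and 4.18 and 3.91 and then 3.94 and 3.78 in iNKT1. Its difference without Hivep3 was -1.35 ± 0.16 in iNKT2, -1.01 ± 0.16 in iNKT17 and -0.19 ± 0.16 in iNKT1.

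The region at chr1:61054328-61054827, 54.3 kb past the end of Icos, had 5.75 and 5.74 for C57BL/6 iNKT1 and 4.86 and 4.75 for Hivep3-/- iNKT1, 6.77 and 6.90 and then 7.27 and 7.24 in iNKT2, and 7.33 and 7.35 and then 7.33 and 7.40 in iNKT17. Its changes differed between iNKT2 and iNKT1 by 1.36 ± 0.11, under 3-fold.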
